A study of Mus musculus with 9 samples.

Results

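The keratins of the interfollicular epidermis and its basal layer were followed in RNA from the dermis of mouse ears. The rows were chosen by gene symbol (Krt5, Krt14, Krt15, Krt1, Krt10, Krt2, Krt77, Krt79 and Krt80), and all 9 were found among the 52550 genes of the count table. Each sample was 1 bulk RNA-seq library of dermis from wild-type C57BL/6 mice of 8 weeks, all of them male. In the VAS+H2O group (n = 3) vaseline was put on the ears for 5 days and water given by gavage for 10 days. The IMQ+H2O group (n = 3) received imiquimod, a Toll-like receptor 7 agonist whose cream brings about a psoriasis-like dermatitis in mice, and the same water. The IMQ+XYF group (n = 3) received imiquimod together with Xiao-Yin-Fang (XYF), a herbal decoction, at 23.3 mg/g by gavage for 10 days. All 3 groups shared the gavage, and the topical agent ran over its last 5 days. The methods describe the RNA as coming from intact dermal ear sheets of a pair of mice, without saying whether a library pools animals, so p-values measure the spread between libraries.

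Keratins are the intermediate filament proteins of epithelial cells, and a type I keratin pairs with a type II keratin in each filament. In mouse skin, Krt5 (type II) and Krt14 (type I) form the filaments of the proliferating basal layer, and Krt15 is a type I keratin of basal cells and of the hair follicle bulge. Cells that leave the basal layer switch to Krt1 (type II) and Krt10 (type I), with Krt2 and Krt77 as further type II partners higher up or in particular skin sites. Krt79 marks the upper hair follicle and its opening, and Krt80 appears in late differentiating epithelia. Fibroblasts, the main cells of the dermis, are not known for these keratins. Their transcripts in a dermal sheet therefore read the keratinocytes it holds, from epidermis left on the sheet or from follicles and glands within it. In bulk RNA, fewer keratinocytes and less keratin RNA per keratinocyte cannot be told apart.

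In GRCm38, all 9 genes were protein-coding and on the minus strand, and they lay in the type I and type II keratin clusters. The type I genes were Krt10 (chr11:99385254-99389364), Krt15 (chr11:100131758-100135928) and Krt14 (chr11:100203162-100207548). The type II genes ran along chromosome 15 from Krt80 (chr15:101347444-101370162) through Krt5 (chr15:101707070-101712898), Krt2 (chr15:101810689-101818169), Krt1 (chr15:101845426-101850794) and Krt77 (chr15:101858731-101869705) to Krt79 (chr15:101929332-101940324). Krt2 and Krt10, which lie on different chromosomes, had the closest levels from library to library, and their promoters are printed beside that of the basal gene Krt5. Each line holds the 250 bases before the RefSeq start (GRCm38.p6, minus strand, 5′ to 3′), and capitals mark the motif TATAA, which was searched on both strands. The windows are chr11:99389365-99389614 for Krt10, chr15:101818170-101818419 for Krt2 and chr15:101712906-101713155 for Krt5.
Krt10: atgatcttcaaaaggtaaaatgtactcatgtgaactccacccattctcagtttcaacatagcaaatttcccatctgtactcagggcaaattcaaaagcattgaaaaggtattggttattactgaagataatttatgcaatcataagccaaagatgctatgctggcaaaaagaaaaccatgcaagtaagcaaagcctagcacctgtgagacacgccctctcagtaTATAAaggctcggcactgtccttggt
Krt2: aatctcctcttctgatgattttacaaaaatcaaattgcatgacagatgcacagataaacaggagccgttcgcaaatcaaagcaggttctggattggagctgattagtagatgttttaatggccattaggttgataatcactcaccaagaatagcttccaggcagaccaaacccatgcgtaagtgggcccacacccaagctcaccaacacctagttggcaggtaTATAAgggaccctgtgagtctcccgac
Krt5: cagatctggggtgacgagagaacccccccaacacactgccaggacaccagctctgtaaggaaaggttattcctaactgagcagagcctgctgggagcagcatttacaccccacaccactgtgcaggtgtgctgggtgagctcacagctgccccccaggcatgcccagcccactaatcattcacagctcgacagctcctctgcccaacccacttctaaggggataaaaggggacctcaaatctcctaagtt
The motif occurred once in Krt10, 26 bases before the start, and once in Krt2, 27 bases before it, while the Krt5 window did not hold these letters. It was present in 22.8% of 32851 RefSeq promoter windows of this length. Neither TGANTCA, the letters of an AP-1 site, nor GCCNNNGGC, those of an AP-2 site, occurred in the 3 printed windows, and they were found in 6.75% and 13.7% of all windows. RefSeq entries were at hand for 6 of the 9 genes (Krt10, Krt14, Krt5, Krt2, Krt77 and Krt79). A match is a description of letters and not of a bound site.

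Libraries held between 28756305 and 79836881 counts, with 8.21% to 14.3% of them on mitochondrial genes. Fibroblast transcripts were abundant in every library. Dcn, the fibroblast proteoglycan decorin, ranged from 4547 to 6282 CPM (counts scaled to library size, here by edgeR's trimmed mean of M values, TMM) over the 9 libraries. Keratinocyte transcripts were also present in every library. In IMQ+XYF replicate 1, Krt2 (7122 CPM) and Krt10 (6179 CPM) were above Dcn (4821 CPM). No epidermal library was analysed here, so no share of epidermis can be computed from these values.

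The 9 keratins together took 0.712%, 0.887% and 0.450% of all counts in the 3 VAS+H2O libraries (mean 0.683% ± 0.220, SD, n = 3). In the IMQ+H2O libraries they took 0.299%, 0.445% and 0.364% (0.369% ± 0.0731, SD, n = 3), and in the IMQ+XYF libraries 2.16%, 0.568% and 0.670% (1.13% ± 0.893, SD, n = 3). Each IMQ+H2O library lay below each VAS+H2O library, by a narrow margin at 0.445% against 0.450%, and each IMQ+XYF library lay above each IMQ+H2O library. IMQ+XYF replicate 1 stood apart from the other 8, and without it the IMQ+XYF mean was 0.619%, inside the range of the VAS+H2O libraries. That library was also the deepest, with 79836881 counts. VAS+H2O replicate 3, the next deepest with 78781537 counts, had the lowest share of its group. The sum of 8 skeletal muscle markers was 78.8 CPM in IMQ+XYF replicate 1 against 312 to 1343 CPM in the other libraries, and the part of tissue make-up in its keratin level was not tested.

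**Figure D1:**
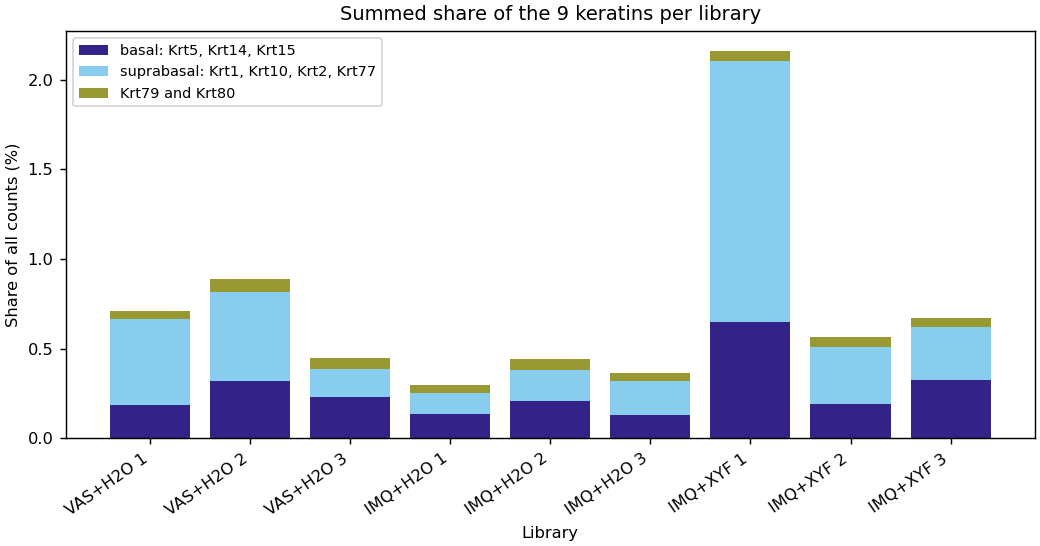
Share of all counts (%, from 0) taken by the 9 keratins in each of the 9 libraries, stacked as basal keratins (Krt5, Krt14, Krt15), suprabasal keratins (Krt1, Krt10, Krt2, Krt77) and Krt79 with Krt80. IMQ+XYF replicate 1 reaches 2.16%, and the other libraries lie between 0.299% and 0.887%.

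The order of the genes was read per length, as CPM per kilobase of the principal transcript. In the VAS+H2O group Krt10 led with 870 ± 419, followed by Krt2 with 686 ± 384, Krt14 with 644 ± 193 and Krt5 with 470 ± 147 CPM per kb (SD, n = 3 here and below). Krt79 (266 ± 65.2) and Krt15 (236 ± 91.7 CPM per kb) came next, then Krt1 (62.9 ± 21.9), Krt77 (25.4 ± 10.2) and Krt80 (23.3 ± 7.19 CPM per kb). Neighbours in this order differed by more than the sum of their SDs at the steps from Krt15 to Krt1 and from Krt1 to Krt77, and not at the others. In the IMQ+H2O group the basal keratin Krt14 led with 478 ± 73.8 CPM per kb, ahead of Krt10 with 341 ± 88.7, Krt5 with 276 ± 103, Krt2 with 237 ± 79.6 and Krt79 with 230 ± 44.1 CPM per kb. Krt15 (83.7 ± 34.2), Krt1 (76.6 ± 28.9), Krt77 (14.8 ± 15.9) and Krt80 (13.1 ± 3.41 CPM per kb) closed that order, with steps beyond the sum of the SDs from Krt79 to Krt15 and from Krt1 to Krt77. In the IMQ+XYF group Krt10 (1411 ± 1334), Krt2 (1255 ± 1274), Krt14 (1245 ± 686) and Krt5 (719 ± 509 CPM per kb) led, and Krt79 and Krt1 were level at 230 ± 31.0 and 230 ± 188 CPM per kb. Krt15 (82.1 ± 61.8), Krt80 (21.1 ± 14.5) and Krt77 (7.37 ± 6.56 CPM per kb) followed, and no neighbours in that group differed by more than the sum of their SDs. Lengths came from the annotation at hand. With all annotated exons counted in place of the principal transcript, Krt79 moved from 242 to 107 CPM per kb over the 9 libraries and fell behind Krt15 at 129.

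Among the basal keratins, Krt5 measured 742, 1378 and 976 CPM in VAS+H2O, 501, 865 and 453 CPM in IMQ+H2O, and 2846, 732 and 1161 CPM in IMQ+XYF. Its groups overlapped in every comparison. Krt14 measured 864, 1469 and 947 CPM in VAS+H2O, 724, 955 and 757 CPM in IMQ+H2O, and 3367, 1064 and 1913 CPM in IMQ+XYF. All IMQ+XYF libraries were above all IMQ+H2O libraries for Krt14, while the VAS+H2O libraries overlapped with both. Krt15 had 229, 442 and 533 CPM in VAS+H2O, 114, 209 and 104 CPM in IMQ+H2O, and 260.5, 88.7 and 69.7 CPM in IMQ+XYF. For Krt15 each IMQ+H2O library was below each VAS+H2O library, and in the IMQ+XYF group only replicate 1 reached the VAS+H2O range.

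Among the suprabasal keratins, Krt10 measured 2169, 2473 and 825 CPM in VAS+H2O, 514, 747 and 881 CPM in IMQ+H2O, and 6179, 1450 and 1234 CPM in IMQ+XYF. Krt2 measured 2403, 2340 and 635 CPM in VAS+H2O, 487, 512 and 860 CPM in IMQ+H2O, and 7122, 1421 and 1294 CPM in IMQ+XYF. For both genes VAS+H2O replicate 3 fell among the IMQ+H2O libraries, and every IMQ+XYF library was above every IMQ+H2O library. Krt1 had 154, 208 and 101 CPM in VAS+H2O, 141, 270 and 154 CPM in IMQ+H2O, and 1092, 242 and 358 CPM in IMQ+XYF. Its IMQ+XYF libraries all lay above the VAS+H2O libraries, and its VAS+H2O and IMQ+H2O libraries overlapped. Krt77 was low throughout, with 63.0, 108 and 52.0 CPM in VAS+H2O, 10.2, 96.7 and 23.3 CPM in IMQ+H2O, and 43.4, 14.4 and 7.03 CPM in IMQ+XYF. For Krt77 IMQ+H2O replicate 2 stood apart from the other libraries of its group, and all IMQ+XYF libraries lay below all VAS+H2O libraries.

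Krt79, the upper follicle keratin, was the steadiest of the 9, with 403, 659 and 614 CPM in VAS+H2O, 436, 590 and 424 CPM in IMQ+H2O, and 459, 556 and 432 CPM in IMQ+XYF. Its highest library was 1.64 times its lowest, against 14.6 times for Krt2 and 12.0 times for Krt10. In IMQ+XYF replicate 1, where Krt2 and Krt10 peaked, Krt79 was in the middle of its range. Krt80 had 51.3, 95.0 and 68.1 CPM in VAS+H2O, 34.9, 52.4 and 33.7 CPM in IMQ+H2O, and 115, 32.2 and 46.6 CPM in IMQ+XYF, and its groups overlapped in every comparison.

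**Figure D2:**
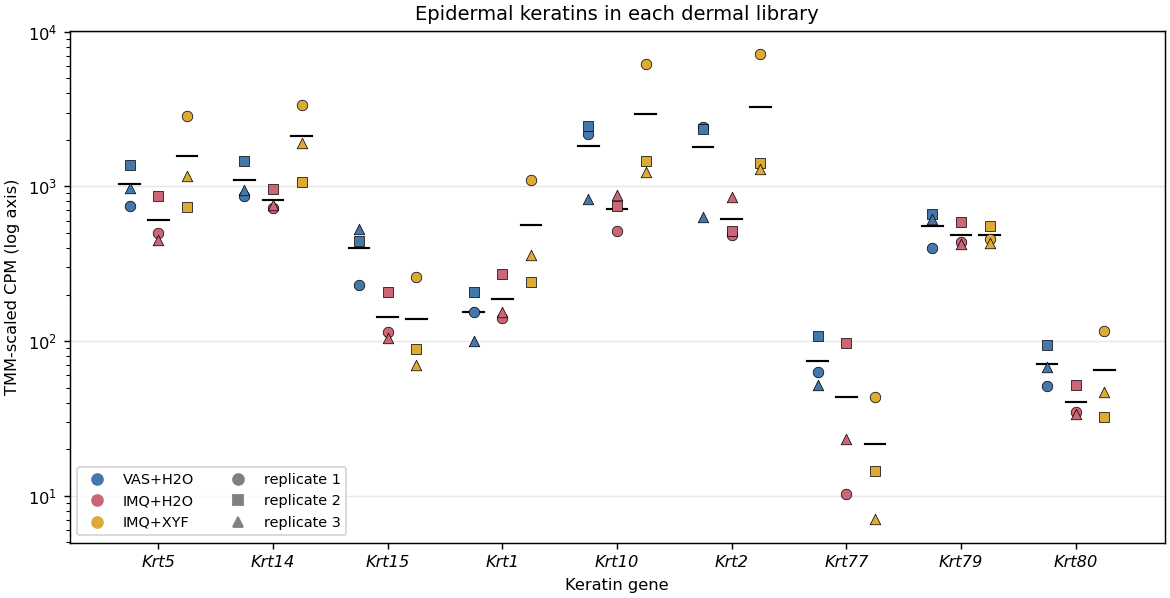
TMM-scaled CPM (log axis) of each keratin in the 9 libraries, coloured by group, with the marker shape giving the replicate number and a bar the group mean. IMQ+XYF replicate 1 (circles) is the highest library for Krt5, Krt14, Krt1, Krt10, Krt2 and Krt80, and Krt79 stays between 403 and 659 CPM.

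What imiquimod did to the keratins of the dermal sheets was read from IMQ+H2O against VAS+H2O. A gene was called where edgeR's quasi-likelihood test gave a Benjamini-Hochberg adjusted p at or below 0.05 and an absolute log2 fold change of at least 1. By this rule 223 of 22430 tested genes (0.994%) were called, and 0 of the 9 keratins, as with DESeq2. At an unadjusted p under 0.05, 0 keratins were higher and 1 was lower, where 10.1% of all tested genes were higher and 10.8% lower. The groups did not overlap for 1 of the 9 keratins, against 31.5% of all tested genes. That keratin was Krt15 in both counts, with a log2 fold change of -1.49 (SE 0.54, unadjusted p = 0.0218, edgeR adjusted p = 0.169). Its value ran from -1.88 to -1.24 as each library was left out in turn. Krt2 had a log2 fold change of -1.53 (SE 0.73, edgeR adjusted p = 0.268) and Krt10 one of -1.35 (SE 0.64, edgeR adjusted p = 0.268), and neither passed the test. The values for Krt5 (-0.77, SE 0.49), Krt14 (-0.43, SE 0.38), Krt80 (-0.83, SE 0.45), Krt77 (-0.78, SE 0.85), Krt79 (-0.21, SE 0.21) and Krt1 (0.29, SE 0.54) were smaller, with edgeR adjusted p from 0.322 to 0.796. The median log2 fold change was -0.78 over the keratins and -0.023 over all tested genes.

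What XYF added to imiquimod was read from IMQ+XYF against IMQ+H2O, which shares the IMQ+H2O libraries with the preceding comparison. Few genes passed the test, with 2 of 22430 (0.00892%) called and 0 of the 9 keratins. At an unadjusted p under 0.05, 5 of the 9 were higher (Krt5, Krt14, Krt1, Krt10 and Krt2) and 0 lower, where 6.35% of all tested genes were higher and 5.39% lower. The groups did not overlap for 3 of the 9 (Krt14, Krt10 and Krt2), against 18.0% of all tested genes. Krt2 had the highest value, a log2 fold change of 2.40 (SE 0.75, unadjusted p = 0.0110, edgeR adjusted p = 0.364). Krt10 had 2.05 (SE 0.66, edgeR adjusted p = 0.364), Krt1 1.58 (SE 0.55, edgeR adjusted p = 0.379), Krt14 1.38 (SE 0.39, edgeR adjusted p = 0.364) and Krt5 1.38 (SE 0.49, edgeR adjusted p = 0.379). Krt80 had 0.68 (SE 0.45), Krt79 -0.0029 (SE 0.21), Krt15 -0.028 (SE 0.53) and Krt77 -1.01 (SE 0.85). The median was 1.38 over the keratins and 0.0055 over all tested genes.

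These values rested in large part on IMQ+XYF replicate 1. Without it, the log2 fold changes were 1.13 for Krt2, 0.91 for Krt10, 0.88 for Krt14, 0.67 for Krt1, 0.64 for Krt5, -0.030 for Krt80, -0.85 for Krt15 and -2.02 for Krt77, and 1 of the 9 keratins had an unadjusted p under 0.05. Krt79 was the exception, at 0.033. The median over the keratins was then 0.64. Leaving out replicate 2 or 3 of the group gave 6 and 5 such keratins. DESeq2's Wald test called Krt14 (DESeq2 adjusted p = 0.0289) and Krt10 (DESeq2 adjusted p = 0.0345). Over the alternatives these adjusted p reached 0.619 for both genes.

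**Figure D3:**
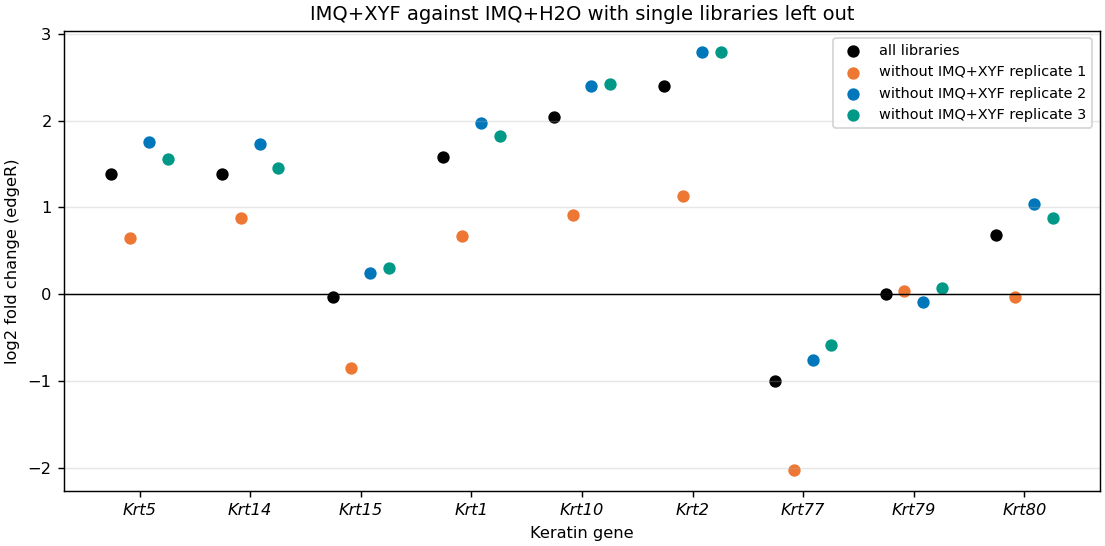
Log2 fold change (edgeR) of each keratin for IMQ+XYF against IMQ+H2O with all libraries and with each IMQ+XYF library left out. Without replicate 1 the value of Krt2 moves from 2.40 to 1.13 and that of Krt10 from 2.05 to 0.91, while Krt79 stays near 0 in each setting.

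IMQ+XYF was last set against VAS+H2O, a contrast that shares libraries with both others. The test called 270 genes (1.2%) and 0 of the 9 keratins. At an unadjusted p under 0.05, 2 keratins were higher and 1 lower, where 9.58% of all tested genes were higher and 8.76% lower. The groups did not overlap for 2 of the 9, Krt1 (higher) and Krt77 (lower), against 22.1% of all tested genes. Krt1 had a log2 fold change of 1.87 (SE 0.56, unadjusted p = 0.00866, edgeR adjusted p = 0.121), and Krt14 one of 0.95 (SE 0.38, unadjusted p = 0.0349, edgeR adjusted p = 0.230). Krt15 had -1.52 (SE 0.54, unadjusted p = 0.0201, edgeR adjusted p = 0.175) and Krt77 -1.78 (SE 0.87, edgeR adjusted p = 0.316). Krt2 (0.87, SE 0.72), Krt10 (0.70, SE 0.63), Krt5 (0.61, SE 0.48), Krt80 (-0.14, SE 0.44) and Krt79 (-0.21, SE 0.21) had edgeR adjusted p from 0.567 to 0.911. The median was 0.61 over the keratins and -0.024 over all tested genes. Without IMQ+XYF replicate 1 the values of Krt10, Krt2 and Krt5 turned to -0.44, -0.40 and -0.13, that of Krt1 moved to 0.96 and those of Krt15 and Krt77 to -2.34 and -2.80, with a median of -0.40 over the keratins. DESeq2 called Krt1 (DESeq2 adjusted p = 0.00688) and Krt15 (DESeq2 adjusted p = 0.0487), and edgeR without IMQ+XYF replicate 2 called Krt1 (edgeR adjusted p = 0.0396) and Krt14 (edgeR adjusted p = 0.0409). Over the alternatives, the adjusted p reached 0.299 for Krt1, 0.381 for Krt15 and 0.578 for Krt14.

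**Figure D4:**
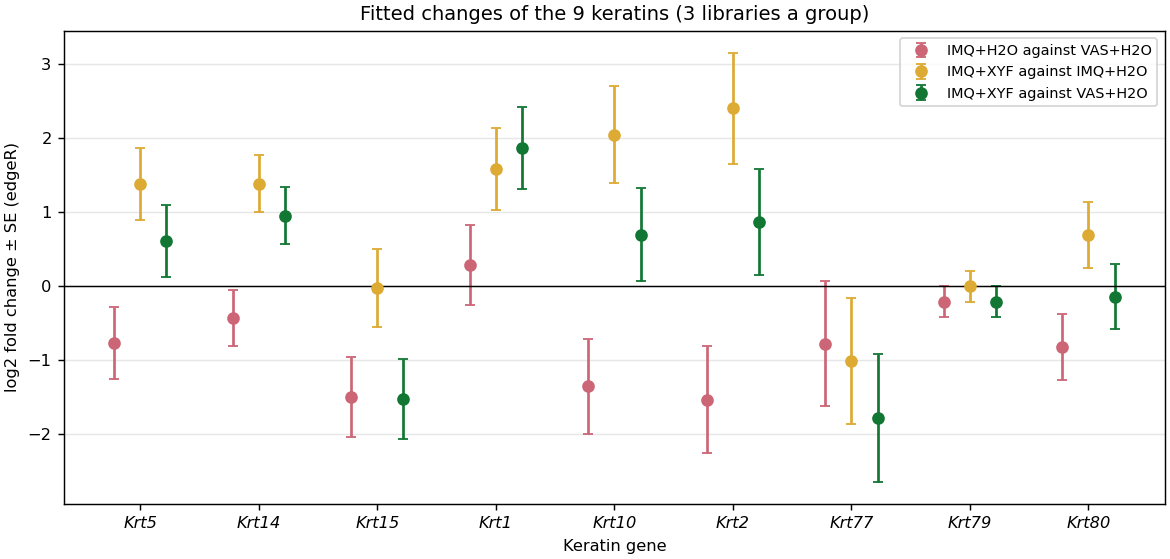
Log2 fold change ± SE (edgeR quasi-likelihood fit over 9 libraries) of each keratin in the 3 comparisons. Krt10 and Krt2 lie below 0 for imiquimod and above 0 for XYF, Krt15 lies near -1.5 in both comparisons with VAS+H2O, and Krt79 lies between -0.21 and -0.0029.

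Ratios between keratins within a library do not depend on how much keratinocyte RNA it holds as a whole. They can still shift with the mix of epidermis and follicle on the sheet, and the part of this mix was not tested. These ratios were chosen with the values known, are given as descriptions, and could not reach an exact permutation p below 0.1 with 3 libraries against 3. The ratio of Krt2 to Krt10 counts stayed between 0.685 and 1.15 over the 9 libraries although the highest library was 12.0 times the lowest or more for each gene alone. Log2 CPM of the pair had a Pearson r of 0.989 over 9 libraries. Within a library, both genes come from the same dissection and depth. Krt5 to Krt14, the basal pair, stayed between 0.598 and 1.03 (r = 0.935 over the same libraries). Within these ranges, Krt2 to Krt10 was higher in each IMQ+XYF library (0.980 to 1.15) than in each IMQ+H2O library (0.685 to 0.975), and Krt5 to Krt14 was lower in each IMQ+XYF library (0.607 to 0.846) than in each VAS+H2O library (0.859 to 1.03). Krt79 had an r between -0.156 and 0.588 with the other members.

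Other ratios varied more widely. Krt1 counts were 7.11%, 8.42% and 12.2% of Krt10 counts in VAS+H2O, 27.4%, 36.1% and 17.5% in IMQ+H2O, and 17.7%, 16.7% and 29.0% in IMQ+XYF. All 6 imiquimod-treated libraries were above all VAS+H2O libraries, and the IMQ+H2O and IMQ+XYF libraries overlapped. Krt1 as a ratio of Krt5 gave the same separation, with means of 0.154 ± 0.0523, 0.311 ± 0.0299 and 0.341 ± 0.0386 (SD, n = 3) in VAS+H2O, IMQ+H2O and IMQ+XYF. Krt15 counts were 26.5%, 30.1% and 56.3% of Krt14 counts in VAS+H2O, 15.7%, 21.9% and 13.8% in IMQ+H2O, and 7.74%, 8.34% and 3.64% in IMQ+XYF. For Krt15 to Krt14 the 3 groups did not overlap, in the order VAS+H2O, IMQ+H2O and IMQ+XYF, and IMQ+XYF replicate 1 lay with its group. Krt77 counts were 2.90%, 4.38% and 6.30% of Krt10 counts in VAS+H2O, 1.98%, 12.9% and 2.65% in IMQ+H2O, and 0.702%, 0.991% and 0.570% in IMQ+XYF, so that the IMQ+XYF libraries lay below all others. The ratio of suprabasal to basal counts was 2.61, 1.56 and 0.657 in VAS+H2O, 0.861, 0.801 and 1.46 in IMQ+H2O, and 2.23, 1.66 and 0.920 in IMQ+XYF, and its groups overlapped.

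**Figure D5:**
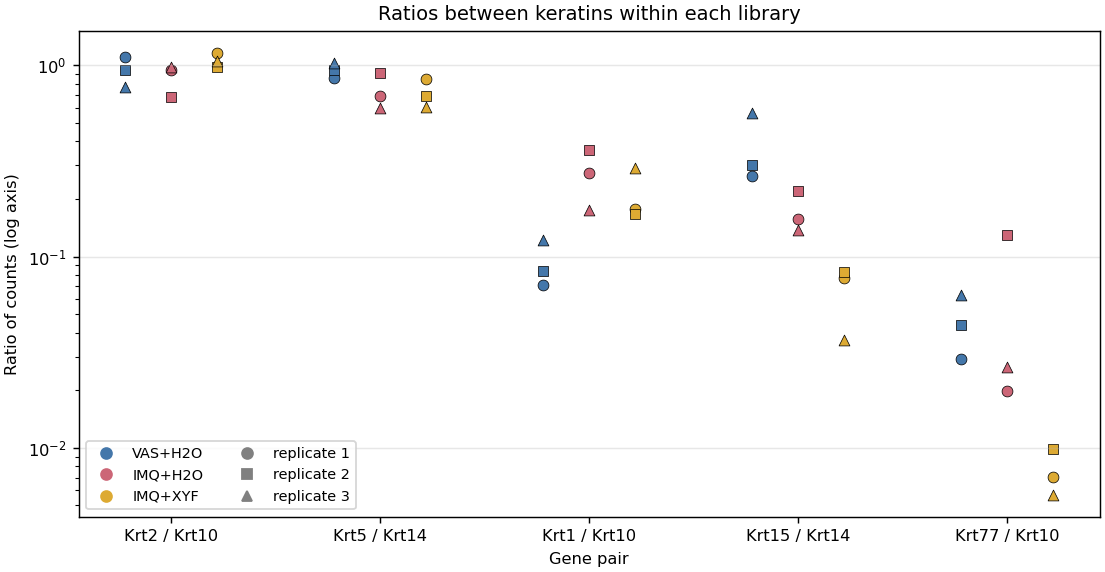
Ratios of counts between pairs of keratins within each library (log axis), coloured by group with the marker shape giving the replicate number. Krt2 to Krt10 and Krt5 to Krt14 stay close to 1, Krt1 to Krt10 is higher in the imiquimod-treated libraries, and Krt15 to Krt14 and Krt77 to Krt10 are lowest in IMQ+XYF.

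Some reads of the basal keratins may be shared with other keratins, since how reads with several matches were counted is not given in the sources used here. Of the 50-base windows of the Krt14 transcript, 14.4% also occur in transcripts of Krt16 or Krt17, and 8.52% of those of Krt5 occur in Krt6a, Krt6b or the predicted genes Gm5414 and Gm5478. The share was 0.666% for Krt15, with Krt17 and Krt25, and 0 for the other 6 members. Krt25, of the root sheath list, measured 24.1, 53.4 and 94.0 CPM in VAS+H2O and at most 9.39 CPM in the imiquimod-treated libraries. Of the partners that are keratins of stressed and wounded epidermis, Krt16, Krt6a and Krt6b had their lowest levels in VAS+H2O. The groups of Krt17 overlapped. Krt16 measured 17.4, 31.3 and 7.15 CPM in VAS+H2O, 84.7, 129 and 107 CPM in IMQ+H2O, and 464, 132 and 742 CPM in IMQ+XYF. Krt6b measured 8.10, 8.42 and 2.87 CPM, then 27.7, 50.6 and 45.6 CPM, then 79.6, 46.1 and 504 CPM in the same groups. Both were called higher in IMQ+XYF than in VAS+H2O, Krt16 with a log2 fold change of 4.59 (SE 0.72, edgeR adjusted p = 0.0286) and Krt6b with 5.04 (SE 0.96, edgeR adjusted p = 0.0418). These calls were lost for both genes without IMQ+XYF replicate 1 or 3, IMQ+H2O replicate 2 or any of the VAS+H2O libraries, and with the replicate block, and 1 of them without IMQ+H2O replicate 1 or 3. Krt6a (2.74, SE 0.58, edgeR adjusted p = 0.0526) and Krt17 (1.10, SE 0.39, edgeR adjusted p = 0.179) did not pass. Their peak was in IMQ+XYF replicate 3, not in replicate 1, where Krt5, Krt14, Krt1, Krt10, Krt2 and Krt80 peaked. The part of these reads in the Krt14 and Krt5 values was not tested. Krt10 overlaps the antisense gene Gm11940, which had at most 202 counts in a library.

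Other keratinocyte genes were read beside the keratins. Of 11 genes of basal keratinocytes, 1 was called for imiquimod. This was Lamb3, a chain of the laminin that anchors basal cells, which fell by 1.34 on the log2 scale (SE 0.15, edgeR adjusted p = 0.0127). Lamb3 measured 53.1, 64.6 and 52.6 CPM in VAS+H2O, 22.9, 25.3 and 19.4 CPM in IMQ+H2O, and 53.3, 42.1 and 40.8 CPM in IMQ+XYF. Its IMQ+H2O libraries lay below all others, and its call was lost without IMQ+H2O replicate 3 (edgeR adjusted p = 0.0631). The most abundant of that list were Dst, a cytolinker of hemidesmosomes (imiquimod log2 fold change -0.56, SE 0.14), the hemidesmosomal collagen Col17a1 (-1.42, SE 0.53) and the desmosomal cadherin Dsc3 (-1.22, SE 0.38), and none of them passed, with edgeR adjusted p of 0.0901, 0.183 and 0.129. The medians of the 11 genes were -0.56 for imiquimod and 0.99 for XYF, the latter 0.53 without IMQ+XYF replicate 1. At an unadjusted p under 0.05, 6 of them were higher for XYF, and 2 without that library. DESeq2 called 2 for imiquimod and 2 for XYF.

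Among 15 genes of keratinocyte junctions 0 were called by edgeR in any comparison (DESeq2 called 2 for XYF), with medians of -0.60 for imiquimod and 1.03 for XYF (0.40 without IMQ+XYF replicate 1). At an unadjusted p under 0.05, 1 of the 15 was lower for imiquimod and 9 were higher for XYF, and 3 without IMQ+XYF replicate 1. Dsp, the desmosomal plaque protein desmoplakin, measured 564, 1163 and 760 CPM in VAS+H2O, 351, 550 and 435 CPM in IMQ+H2O, and 1912, 521 and 656 CPM in IMQ+XYF. Perp, a desmosomal membrane protein, and Pkp1, a desmosomal plaque protein, also had their highest level in IMQ+XYF replicate 1, at 1099 and 908 CPM. Among 16 genes of suprabasal differentiation 0 were called by edgeR (DESeq2 called 1 for imiquimod and 5 for XYF), with medians of -0.87 for imiquimod and 1.45 for XYF (0.63 without IMQ+XYF replicate 1). At an unadjusted p under 0.05, 3 of the 16 were lower for imiquimod. For XYF 11 of the 16 had an unadjusted p under 0.05 and were higher, and 5 without IMQ+XYF replicate 1. Dmkn, a secreted protein of the upper epidermis, measured 442, 533 and 233 CPM in VAS+H2O, 201, 263 and 246 CPM in IMQ+H2O, and 1207, 319 and 380 CPM in IMQ+XYF. Sbsn, another secreted protein of these layers, and Calm4, a calmodulin-like protein, had XYF log2 fold changes of 0.90 (SE 0.28, edgeR adjusted p = 0.364) and 1.96 (SE 0.64, edgeR adjusted p = 0.366).

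Keratins of the hair follicle had lower values with imiquimod. Of 12 tested keratins of the hair shaft, 9 were called lower in IMQ+H2O than in VAS+H2O, and of 8 tested keratins of the inner root sheath and companion layer 2 were called lower. Among the called genes, Krt33a, Krt33b, Krt34 and Krt81 had 0 CPM in every imiquimod-treated library. Krt31, Krt35 and Krt86, and Krt26 of the root sheath, were at or near 0 there too. Such genes passed the low-count filter through VAS+H2O alone, so the direction of their calls was fixed by the filter. The hair shaft count fell to 0 to 3 without any single IMQ+H2O library or without VAS+H2O replicate 2 or 3, the replicate block gave 4, and leaving out VAS+H2O replicate 1 gave 5. The root sheath count was 0 without any IMQ+H2O library or VAS+H2O replicate 2 or 3. The summed hair shaft keratins stood at 29.1, 43.9 and 118 CPM in VAS+H2O, 2.20, 1.58 and 0.975 CPM in IMQ+H2O, and 4.72, 0.997 and 1.02 CPM in IMQ+XYF. They were highest in VAS+H2O replicate 3, where the suprabasal keratins were lowest in that group. Of 6 follicle bulge genes 0 were called by edgeR for imiquimod and 1 by DESeq2, with 2 lower at an unadjusted p under 0.05 and a median of -0.67. Of 5 upper follicle genes, the setting of Krt79, 0 were called by edgeR or DESeq2, with 1 lower at an unadjusted p under 0.05 and a median of -0.32. For XYF edgeR called 0 of these 5, with 1 higher at an unadjusted p under 0.05 and a median of 0.61. Unlike Krt79, their sum was highest in IMQ+XYF replicate 1, at 559 CPM against 217 to 445 CPM in the other libraries. The most abundant gene of the bulge list, Cd34, had an imiquimod log2 fold change of -0.10 (SE 0.29, edgeR adjusted p = 0.863). Bulk RNA does not tell which cells of the sheet gave the transcripts of these genes, and this was not tested. The bulge regulator Nfatc1 had one of -1.02 (SE 0.22, edgeR adjusted p = 0.0649) and Sox9 one of -1.32 (SE 0.30, edgeR adjusted p = 0.0689). Of the 6 bulge genes, 1 had a positive value. Sox9 is also a regulator of cartilage.

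Markers of other tissues in the ear were summed in the same way. The sum of the 10 tested cartilage markers (of 11 listed) was 2269, 1305 and 1650 CPM in VAS+H2O, 595, 360 and 508 CPM in IMQ+H2O, and 706, 2163 and 1226 CPM in IMQ+XYF. Like the summed keratins, these were lowest in the IMQ+H2O group, and 3 of 10 tested were called lower for imiquimod, but among the IMQ+XYF libraries replicate 1, the highest for keratins, was the lowest for cartilage. Those 3 calls were lost without any single VAS+H2O or IMQ+H2O library. For XYF edgeR called 0 of the 10 cartilage genes. At an unadjusted p under 0.05 in edgeR, 9 of them were higher for XYF, against 6.35% of all tested genes. Their median log2 fold change for XYF was 1.47. The sum of 8 fibroblast markers ranged from 15060 to 25940 CPM in VAS+H2O, 10810 to 17780 CPM in IMQ+H2O and 10920 to 18250 CPM in IMQ+XYF. The sum of 8 proliferation genes ranged from 72.8 to 138, from 106 to 164 and from 160 to 223 CPM in the same order. Of the markers of endothelium (6), sebaceous gland (7), Langerhans cells (4), melanocytes (6), skeletal muscle (8) and proliferation (8), 0 were called by edgeR or DESeq2 for imiquimod, where 3 endothelial genes were higher and 2 sebaceous genes lower at an unadjusted p under 0.05. For XYF edgeR called 0 of them and DESeq2 1, a muscle gene. At an unadjusted p under 0.05, edgeR had 6 muscle, 3 endothelial, 1 sebaceous and 1 Langerhans cell genes lower and 2 proliferation genes higher. This Langerhans cell gene was Cd74, with an XYF log2 fold change of -0.69 (SE 0.27). Its list was split for XYF, with H2-Aa at -0.62 (SE 0.29), Cd207 at 1.215 (SE 0.675) and Epcam at 0.34 (SE 0.32). The part of these tissues in the keratin values was not tested.

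The genes whose profile was most like the keratins were ranked by Pearson r over the 9 libraries with the mean centred log2 CPM of the 9 members, among 17105 tested genes with a given name. The first 8 were Pof1b (r = 0.981), Fam83g (0.980), Fut1 (0.978), Arhgef4 (0.978), Rasgrp1 (0.978), Cblc (0.977), Perp (0.976) and Btg3 (0.974). All 8 were highest in IMQ+XYF replicate 1. The mean of the members also peaked there (1.33), so the ranking itself made this likely. Pof1b ranged from 36.4 to 184 CPM, Perp from 331 to 1099 CPM and Btg3 only from 28.0 to 35.7 CPM.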

How the data were processed

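RNA-seq libraries of ear dermis (3 groups, n = 3) were analysed from the raw counts per Ensembl gene deposited by the authors. Per the study's methods, reads were aligned with STAR to GRCm38 (Ensembl release 90), transcripts assembled with StringTie and genes tested with DESeq2. The submitters' processing notes list FastQC, STAR 2.5, Cuffnorm and DESeq 1.22.1. The counting tool, its filters and its treatment of multiply mapped reads are not given in the sources used here. The labels call the libraries strand-specific, whereas the kit named in the methods does not mark strand, so antisense reads may not be separable.

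Genes passing filterByExpr (22430 of 52550) were fitted over all 9 libraries with edgeR 4.0.16 (R 4.3.3), using TMM scaling and the quasi-likelihood test with Benjamini-Hochberg adjustment. Limits were adjusted p of 0.05 and absolute log2 fold change of 1. SE was the log2 fold change over the square root of F. The test was also run on counts simulated with the fitted dispersions. That setting holds no outlying library, so it does not cover one such as IMQ+XYF replicate 1. Alternatives were DESeq2 1.42.0, other scalings and filters, a stricter adjusted p, 2-group fits, a replicate block and leaving out each library. Totals of 28756305 to 79836881 counts put the floor of 3 counts at 0.0373 to 0.103 CPM, covering counting error only. The members and gene lists were chosen with earlier results of these data known. Text names all members, the stress keratins Krt6a, Krt6b, Krt16 and Krt17, from each companion list up to 3 genes of highest mean CPM and called genes, and the 8 genes most like the members; not every gene the rule allows is printed.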

Additional observations from a re-analysis of the deposited data

How the results depend on the processing

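Over 17 alternatives and 27 values (9 keratins, 3 comparisons), 431 of 459 log2 fold changes kept their direction and side of the limits, 6 passed the limits and 22 changed sign. The genes called for imiquimod (223) became 949 with DESeq2, 496 with only the 2 groups compared, 86 with the replicate block and 13 at an adjusted p of 0.01, and ranged from 25 to 455 as each library was left out. For XYF (2) they became 225 with DESeq2, 1 with library totals, 1 with at least 1 CPM in 3 libraries, 1 with only the 2 groups, 0 with the replicate block and 0 at 0.01, and ranged from 0 to 4 without single libraries. For IMQ+XYF against VAS+H2O (270) they became 743 with DESeq2, 33 with only the 2 groups, 54 with the replicate block and 1 at 0.01, and ranged from 12 to 592. Keratins called (0 of 9) became 2 with DESeq2 for XYF, and for IMQ+XYF against VAS+H2O 2 with DESeq2 and from 0 to 2 without single libraries, the 2 being without IMQ+XYF replicate 2. The suprabasal to basal ratio had means of 1.61 in VAS+H2O, 1.04 in IMQ+H2O and 1.60 in IMQ+XYF, with overlapping groups. Krt1 to Krt5 in its place gave 0.154 in VAS+H2O, 0.311 with imiquimod alone and 0.341 with XYF. The direction with imiquimod was thus lower for the first ratio and higher for the second. The cause was not tested.

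Sign changes without single libraries were those of Krt1 for imiquimod, lowest at -0.068 (highest 0.56); of Krt15 (-0.85 to 0.36), Krt77 (-2.02 to 0.37), Krt79 (-0.090 to 0.17) and Krt80 (-0.030 to 1.03) for XYF; and of Krt5 (-0.13 to 1.01), Krt10 (-0.44 to 1.07), Krt2 (-0.40 to 1.27) and Krt80 (-0.86 to 0.23) for IMQ+XYF against VAS+H2O. The XYF value of Krt15 was 0.0052 without a low-count filter, and that of Krt79 was 0.0057 with DESeq2, 0.0011 with library totals, 0.021 without the filter and 0.0066 with the replicate block. Equal replicate numbers were not taken as a pairing of the libraries. Deviations from the group means correlated between -0.183 and 0.125 for same-numbered libraries and between -0.161 and 0.277 for the others. With 3 libraries a group these values cannot show whether libraries shared a batch, and the block is given for its counts only.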

Other observations

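A further list held keratins placed in none of the lists of epidermal members, stress, root sheath or hair shaft keratins. Of its 13 genes, 11 were tested and 0 called by edgeR in any comparison. DESeq2 called 1 for XYF and 1 for IMQ+XYF against VAS+H2O, and at an unadjusted p under 0.05 edgeR had 3 lower for imiquimod, 2 higher for XYF and 1 lower for IMQ+XYF against VAS+H2O. Krt24 measured 19.0, 41.9 and 9.07 CPM in VAS+H2O, 5.30, 4.51 and 9.32 CPM in IMQ+H2O, and 61.9, 12.6 and 7.52 CPM in IMQ+XYF, and was highest in IMQ+XYF replicate 1 like Krt2 and Krt10. Krt78 measured 24.5, 25.9 and 6.35 CPM, then 4.82, 7.84 and 4.68 CPM, then 22.3, 6.71 and 3.98 CPM in the same groups. Krt8, a keratin of simple epithelia, measured 13.9, 7.56 and 9.33 CPM, then 6.34, 2.52 and 3.41 CPM, then 5.74, 27.4 and 12.2 CPM, and was highest in IMQ+XYF replicate 2.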
